A study of Mus musculus with 4 samples.

Results

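The genes described here are 10 splicing regulators that are used to tell epithelial, mesenchymal, neural and muscle cells apart: Esrp1, Esrp2, Rbfox2, Mbnl1, Mbnl2, Mbnl3, Ptbp1, Ptbp2, Celf1 and Qk. They were chosen by name, with earlier results of these data known. They are 10 of the 26994 gene symbols in the tables and hold 31 of the 35656 transcript rows. The study deleted the Evx1as/Evx1 locus in mouse embryonic stem cells and followed their differentiation once the cytokine LIF was withdrawn. The libraries analysed here are its unedited arm. They comprise 2 libraries from day 6 and 2 from day 4 of LIF withdrawal, all of CJ9 embryonic stem cells of strain 129S4/SvJae, wild type at the locus and titled as carrying Cas9 only. CJ9 is a single cell line, and apart from the growth text given below, nothing in the labels ties the libraries of 1 day to different cultures. Every p-value therefore measures library-to-library spread only, which may be technical. The growth text of the labels gives 4 and 6 days without LIF for day 6 replicates 1 and 2, and 2 and 6 days for day 4 replicates 1 and 2. The titles, which gave the groups, therefore differ from that text for 3 libraries. Under that text the libraries of 1 day would also differ in time without LIF, which was not tested.

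Alternative splicing joins different exons of one gene into different messenger RNAs. RNA-binding proteins steer it by sitting on short motifs in or beside an exon, and many of them also control exons in their own transcripts and in those of their close relatives. Esrp1 and Esrp2 maintain epithelial splicing patterns, for example the epithelial form of the receptor Fgfr2. Rbfox2 and Qk (Quaking) act on many of the exons that differ in mesenchymal cells. The Mbnl (muscleblind) proteins are known to repress embryonic stem cell exon patterns and favour those of differentiated cells, and Celf1 often opposes them in muscle and heart. Ptbp1 represses neural exons in non-neural cells, and it keeps its neural relative Ptbp2 low by making a Ptbp2 transcript that is degraded.

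Polyadenylated RNA was sequenced from stranded libraries, and the values are FPKM, fragments mapped to a transcript scaled by its length and by the mapped fragments of the library. FPKM of all rows of a gene were summed. The tables hold no counts, so the depth of a library is not known from them. The deposited coverage divided by FPKM, which grows with depth, had a median of 1.82 and 1.59 in day 6 replicates 1 and 2, against 0.698 and 0.929 in day 4 replicates 1 and 2. Rows above 1 FPKM numbered 13872 and 13743 at day 6, against 12704 and 10450 at day 4.

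The day 4 libraries stood apart from each other along the GC content of the transcripts. Over genes of 30 to 40% GC, day 4 replicate 2 had a median log2 value 1.75 below replicate 1, and over genes of 60 to 70% GC a median 1.55 above it. The corresponding medians between the day 6 libraries were -0.089 and -0.11. Among the 10 members, the log2 ratio of day 4 replicate 2 to replicate 1 ran from -2.76 for Ptbp2, at 40.6% GC, to 2.09 for Ptbp1, at 54.7% GC. Pearson's r between GC content and that ratio was 0.67 over the 10 genes, which share the same pair of libraries, and is given as a description. The part of this gap in each result below was not tested beyond the GC-corrected values given.

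**Figure D1:**
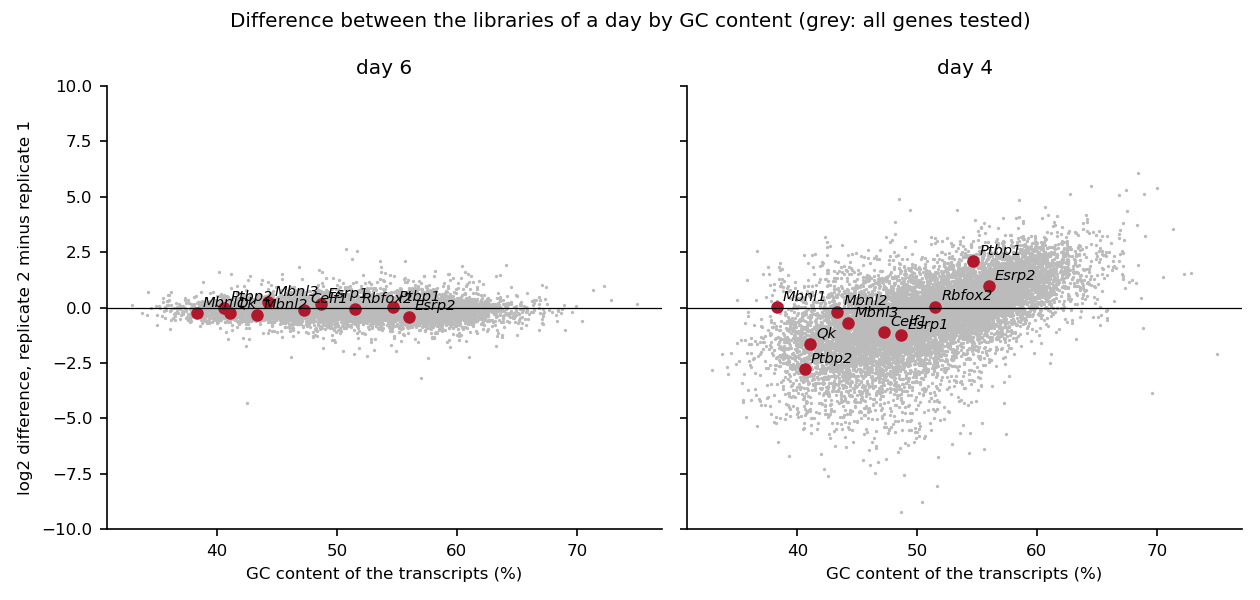
Log2 difference of replicate 2 minus replicate 1 (vertical axis, log2 of FPKM + 1) against the GC content of the transcripts in percent, at day 6 (left) and day 4 (right). Grey points are all genes tested and red points the 10 members: at day 6 all 10 lie near 0, and at day 4 they spread from -2.76 for Ptbp2 to 2.09 for Ptbp1.

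The bulk libraries also differed in the levels of several marker genes, although the limma test called 0 genes in each marker list. Fewer cells of a type and less RNA per cell cannot be told apart in bulk libraries, so cell make-up itself was not tested. The summed level of 12 pluripotency genes was 341 and 355 FPKM at day 6, against 1023 and 1060 FPKM at day 4, of which Pou5f1 alone made up 368 and 376 FPKM at day 4. Without overlap between the days, 4 of these genes were higher at day 6 and 6 lower, and their median log2 difference was -0.73, or 0.085 without day 4 replicate 1. That of the mesenchymal list was 1183 and 1338 FPKM at day 6, against 407 and 805 FPKM at day 4, with 12 of 15 tested genes higher and 0 lower at day 6 without overlap. That of the extraembryonic endoderm list was 419 and 353 FPKM at day 6, against 56.5 and 98.6 FPKM at day 4, with 9 of 9 tested genes higher. Its marker Ttr, a secreted carrier protein of visceral endoderm, had 8.13 and 11.04 FPKM at day 6 and was listed at 0 in both day 4 libraries. Epithelial genes summed to 5978 and 3936 FPKM at day 6, against 2027 and 3848 FPKM at day 4. Of 23 tested, 12 were higher and 2 lower without overlap (52.2 and 8.70%, beside 41.6 and 11.5% of all genes). Cardiac and muscle genes summed to 842 and 702 FPKM at day 6, against 486 and 1045 FPKM at day 4, ranges that overlapped. Of 10 tested, 5 were higher and 2 lower without overlap (50 and 20%). Neural genes summed to 84.3 and 42.3 FPKM at day 6, against 274 and 133 FPKM at day 4. Of 6 tested, 1 was higher and 2 lower without overlap. The neural progenitor gene Nes had 14.3 and 5.76 FPKM at day 6, against 140 and 87.6 FPKM at day 4. Stmn2 had 13.7 and 6.06 FPKM at day 6, against 80.6 and 19.4 FPKM at day 4. Nes and Stmn2 made up most of the neural sum at day 4. The median log2 difference of the neural list was -0.17, with 3 genes positive and 3 negative, or 0.26 without day 4 replicate 1. The part of these shifts in the members' values was not tested.

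3 exons of the members carry most of what follows, and their sequences show what the transcript rows differ by. Each is given on the transcribed strand with its position in GRCm38, the build that mm10 stands for, read from GENCODE M21 transcripts. In the Mbnl2 and Mbnl1 exons, capitals mark the Mbnl-type motifs, which are TGCT and TGCC as well as CGCT and also CGCC. They were searched on the transcribed strand only. The Ptbp1 exon was not searched for them, so its lower case does not mean that it holds none. A match is a description and not a binding site.
Mbnl2 54-nt exon, chr14:120395712-120395765, plus strand: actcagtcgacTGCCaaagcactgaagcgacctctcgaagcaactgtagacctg
Mbnl1 95-nt exon, chr3:60622146-60622240, plus strand: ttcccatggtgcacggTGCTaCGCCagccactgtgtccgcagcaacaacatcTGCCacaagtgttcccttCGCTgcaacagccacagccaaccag
Ptbp1 78-nt exon, chr10:79860117-79860194, plus strand: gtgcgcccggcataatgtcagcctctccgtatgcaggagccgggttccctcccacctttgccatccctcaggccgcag

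The Mbnl2 exon holds 1 match, and 44.2% of 1317 coding exons of that length hold at least 1. The Mbnl1 exon holds 4 matches, and 68.4% of 1046 coding exons of its length hold at least 1, with a median of 1. The share of them that hold 4 or more is not given here. The Ptbp1 exon was searched for the pyrimidine motif TCTT instead and holds none, as do 72.8% of coding exons of its length, since 27.2% of 1362 hold it.

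Mbnl3 and Mbnl2 had the largest differences between the days. Mbnl3, an X-linked member of the muscleblind family (chrX:51113494-51205832, minus strand) found mostly in embryonic and placental tissues, was at 6.05 and 7.28 FPKM at day 6, against 0.965 and 0.209 FPKM at day 4. The deposited intervals of the day 6 libraries, from 5.49 upwards, lie above those of the day 4 libraries, which reach 1.24. Its log2 difference of day 6 minus day 4, on log2(FPKM + 1), was 2.31 with a standard error of 0.45, and the limma adjusted p over all genes was 0.267 (unadjusted 0.00536). Mbnl2, the muscleblind member that dominates in brain (chr14:120275669-120431698, plus strand), was at 28.3 and 22.3 FPKM at day 6, against 6.98 and 6.00 FPKM at day 4. Both day 6 libraries stood above both day 4 libraries, with means of 25.3 ± 4.20 FPKM for day 6 and 6.49 ± 0.693 FPKM for day 4 (SD, n = 2 each), a 3.90-fold ratio. Its log2 difference was 1.81 with a standard error of 0.43 and a limma adjusted p of 0.267 (unadjusted 0.0115). Mbnl1, the most widely used member in adult tissues, was the lowest of the 3 at day 6, at 1.29 and 0.922 FPKM, against 1.57 and 1.595 FPKM at day 4. The days did not overlap, with a log2 difference of -0.30, a standard error of 0.36 and a limma adjusted p of 0.702.

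The 3 Mbnl genes together had 35.6 and 30.5 FPKM at day 6, against 9.52 and 7.81 FPKM at day 4. Mbnl3 made up 17.0 and 23.8% of that sum at day 6 and 10.1 and 2.68% at day 4. Mbnl1 made up 3.63 and 3.02% at day 6 and 16.5 and 20.4% at day 4. For both genes the shares of the days did not overlap, and the exact two-sided permutation p was 0.33, the smallest that 2 libraries against 2 can give. Mbnl2 held 79.4 and 73.1% at day 6 and 73.3 and 76.9% at day 4, so its share overlapped between the days while its level did not.

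**Figure D2:**
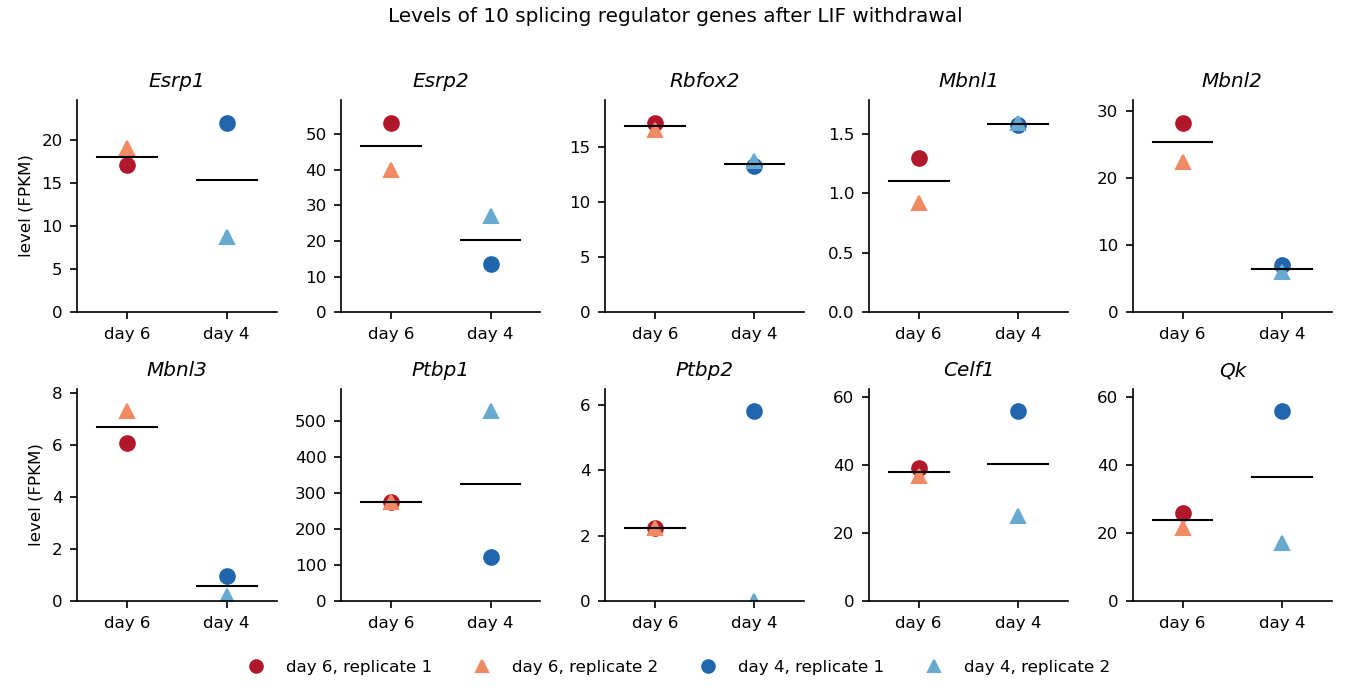
Level in FPKM (vertical axis, from 0, scaled per gene) of each of the 10 genes at day 6 (left) and day 4 (right). Circles are replicate 1, triangles replicate 2 and black lines the mean of a day, left out for Ptbp2 at day 4, where replicate 2 is listed at 0. On the deposited scale Mbnl2, Mbnl3, Esrp2 and Rbfox2 are higher in both day 6 libraries, Mbnl1 is lower in both, and the day 4 libraries lie on both sides of the day 6 libraries for the other 5.

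Of the Esrp pair, Esrp2 (chr8:106131183-106136974, minus strand) was at 53.3 and 39.9 FPKM at day 6, against 13.5 and 27.1 FPKM at day 4. Neither day 4 library reached the day 6 range, and the gene had a log2 difference of 1.22, a standard error of 0.55 and a limma adjusted p of 0.376. Esrp1 was at 17.1 and 19.02 FPKM at day 6, against 22.0 and 8.76 FPKM at day 4, so the days overlapped. Its log2 difference was 0.35 with a standard error of 0.59 and a limma adjusted p of 0.793. Esrp2 held 75.7 and 67.7% of the pair's FPKM at day 6, against 38.1 and 75.6% at day 4, and the day 4 libraries lay on both sides of day 6 replicate 2. The pair's transcripts differ in GC content, at 48.7% for Esrp1 and 56.0% for Esrp2, and the log2 ratio of day 4 replicate 2 to replicate 1 was -1.24 for Esrp1 and 0.95 for Esrp2. After correction for GC content the log2 difference was -0.34 for Esrp1 and 0.78 for Esrp2.

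Ptbp1 was the most abundant of the 10 genes, at 275 and 276 FPKM at day 6, against 123 and 527 FPKM at day 4. The day 6 libraries lay between the day 4 libraries, and the log2 difference was 0.11 with a standard error of 0.84 and a limma adjusted p of 0.957. Ptbp2, its neural relative, was at 2.23 and 2.22 FPKM at day 6 and 5.79 FPKM in day 4 replicate 1, and it was listed at 0 in day 4 replicate 2. In that library 3 of 34 core spliceosome genes were also listed at 0, against 0 of 34 in each of the other 3 libraries, so the entry is given only as listed. Its log2 difference was 0.31 with a standard error of 1.00 and a limma adjusted p of 0.893. Ptbp1 held 94.6 and 96.3% of the summed FPKM of Ptbp1, Ptbp2 and Ptbp3 at day 6 and 87.6 and 99.7% at day 4. Ptbp2 held 0.767 and 0.778% at day 6 and 4.12 and 0% at day 4.

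Of the other 3 genes, Rbfox2 was nearly level, at 17.2 and 16.5 FPKM at day 6, against 13.2 and 13.7 FPKM at day 4. The days did not overlap, but the log2 difference of 0.30 had a standard error of 0.41 (limma adjusted p 0.739), and it lay under the median of 0.51 over all 11716 genes tested and was -0.33 after median centring. Celf1 was at 39.1 and 36.6 FPKM at day 6, against 55.7 and 24.96 FPKM at day 4, with a log2 difference of 0.02, a standard error of 0.57 and a limma adjusted p of 0.991. Qk was at 25.9 and 21.4 FPKM at day 6, against 55.7 and 17.2 FPKM at day 4. Its log2 difference was -0.39 with a standard error of 0.70 and a limma adjusted p of 0.806. For Celf1 and Qk the day 4 libraries again lay on either side of the day 6 libraries.

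By mean FPKM at day 6 the order was Ptbp1 at 275, Esrp2 at 46.6, Celf1 at 37.8, Mbnl2 at 25.3, Qk at 23.6, Esrp1 at 18.1, Rbfox2 at 16.8, Mbnl3 at 6.67, Ptbp2 at 2.23 and Mbnl1 at 1.11. The neighbours Mbnl2 and Qk overlapped in their day 6 libraries, as did Esrp1 and Rbfox2. At day 4 the ranges of Celf1, Qk and Esrp2 overlapped one another, while Ptbp1 remained above all other members and Mbnl3 was the lowest in replicate 1.

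No member passed the limma test at an adjusted p of 0.05, and neither did any of the 11716 genes tested (0%), of which 1793 had an unadjusted p under 0.05. In both day 6 libraries above both day 4 libraries were 4 members, Esrp2, Rbfox2, Mbnl2 and Mbnl3, or 40% of the 10, beside 41.6% of all genes tested. Below both was 1 member, Mbnl1, or 10%, beside 11.5% of all genes. These counts are near the background and say nothing particular of the 10 genes. The median log2 difference was 0.31 over the members and 0.51 over all genes. With each library centred on its median, 3 members were positive and 7 negative, in place of 8 and 2. Then 2 members, Mbnl2 and Mbnl3, were higher without overlap, and 4, Celf1, Mbnl1, Qk and Rbfox2, were lower. After GC correction Esrp2, Mbnl2 and Mbnl3 were higher and Celf1, Esrp1, Qk and Rbfox2 lower. Over all 11716 genes tested, 5252 were positive and 6464 negative after median centring. The shares of all genes without overlap under either scaling are not given here, so these counts say nothing particular of the members.

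A single day 4 library decided the direction of several members. Without day 4 replicate 1, limma called 7837 genes (66.9%), and 7 members were among them: Mbnl3 at a log2 difference of 2.66, Mbnl2 at 1.90, Ptbp2 at 1.69, Esrp1 at 0.96, Esrp2 at 0.75 and Celf1 at 0.58 were higher at day 6, and Ptbp1 at -0.93 was lower. Without day 4 replicate 2 it called 6081 genes (51.9%), again with 7 members: Mbnl3 at 1.96, Mbnl2 at 1.71, Esrp2 at 1.70 and Ptbp1 at 1.15 were higher, and Qk at -1.21, Ptbp2 at -1.07 and Celf1 at -0.55 were lower. Mbnl2, Mbnl3 and Esrp2 were higher in both fits, whereas Ptbp1, Ptbp2 and Celf1 were called in opposite directions. These fits take the spread of the lone day 4 library to equal that of the day 6 pair.

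**Figure D3:**
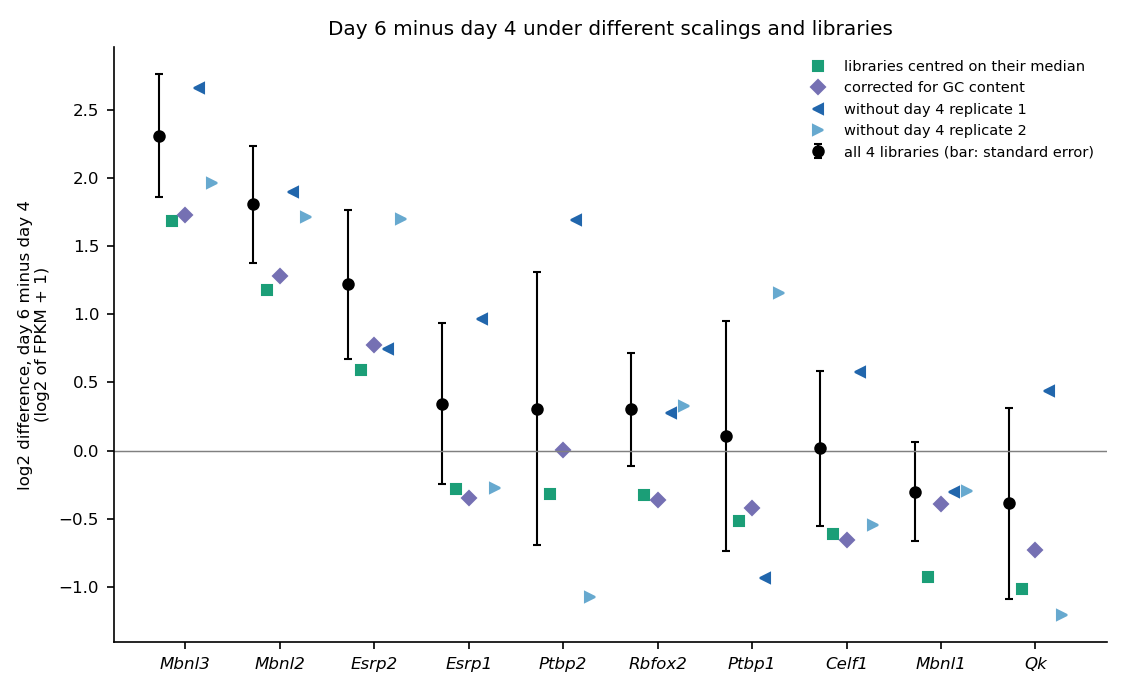
Log2 difference of day 6 minus day 4 (vertical axis, log2 of FPKM + 1) for the 10 genes, ordered by the value over all 4 libraries (black, with its standard error). Coloured symbols give the value after median centring, after GC correction and without each day 4 library: Mbnl3, Mbnl2 and Esrp2 stay above 0 in all of them, Mbnl1 stays below 0, and Rbfox2, Ptbp1, Ptbp2, Celf1, Esrp1 and Qk lie on both sides of 0.

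The transcript rows of the members were then compared as shares of their gene. Of the 31 rows, 21 passed a mean of 1 FPKM, and limma's test for isoform use (diffSplice) called 0 member rows, beside 70 of 3955 rows over all genes (1.77%). In genes with several tested rows, 43.1% of 3859 rows had shares that did not overlap between the days, so an absence of overlap alone is common. Of the 21 member rows tested, 9 were higher and 1 lower at day 6 in level without overlap (42.9 and 4.76%), beside 39.8 and 11.8% of 13849 rows over all genes. Shares of rows are estimates of the authors' quantifier, and rows that differ by a single exon share most of their reads.

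Mbnl2 had 2 rows that differ by the 54-nt exon printed above. In Mbnl1 and Mbnl2 an exon of this kind is controlled by the Mbnl proteins themselves and favours nuclear location of the protein. The row with the exon, NM_175341, was at 17.1 and 12.6 FPKM at day 6, against 6.98 and 4.43 FPKM at day 4. The row without it, NM_207515, was at 11.2 and 9.71 FPKM at day 6, against 0.0011 and 1.57 FPKM at day 4. The row with the exon therefore made up 60.5 and 56.5% of Mbnl2 at day 6, against 100.0 and 73.8% at day 4. Both rows were higher at day 6, and the shares of the days did not overlap.

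Mbnl1 had 6 rows, of which 3 contain the 95-nt exon near the end of the coding region. The rows with it summed to 1.05 and 0.773 FPKM at day 6, against 0.0012 and 0.0011 FPKM at day 4, or 81.4 and 83.9% of the gene at day 6 and 0.073 and 0.071% at day 4. The rows without it summed to 0.241 and 0.148 FPKM at day 6, against 1.57 and 1.595 FPKM at day 4. This was the widest gap in isoform share among the members, but every row is at or under 1.6 FPKM and the rows differ in other exons too. None of the 6 rows reached the mean of 1 FPKM, so neither their levels nor their use was tested. The row that holds nearly all of the exon-containing FPKM, NM_020007, had deposited intervals of 0.761 to 1.34 and 0.509 to 1.04 FPKM at day 6, above the upper bounds of 0.0721 and 0.0729 FPKM at day 4.

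Ptbp1 had 3 rows, and the 78-nt exon between its middle RNA recognition motifs is present in 1 of them, NM_001077363. Skipping of this exon is known to weaken Ptbp1 as a splicing repressor. The row with the exon held 62.2 and 54.3% of the gene at day 6 and 68.3 and 34.5% at day 4, an overlap. The remainder was not the same row in each library. The row NM_008956 had 100 and 124 FPKM at day 6, against 39.0 and 0.00043 FPKM at day 4. The row NM_001283013, whose coding sequence is 1467 nt in place of 1587 nt, had 3.59 and 1.66 FPKM at day 6, against 0.00079 FPKM in day 4 replicate 1 and 345 FPKM in day 4 replicate 2.

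Rbfox2 had 9 rows from an upstream and a downstream start site. The 3 rows from the upstream start held 56.3 and 57.9% of the gene at day 6 and 64.1 and 86.9% at day 4, without overlap. Within them the day 4 libraries disagreed, since NM_175387 had 8.46 FPKM in replicate 1 and 0.733 FPKM in replicate 2, and NM_053104 had 0.0128 FPKM in replicate 1 and 10.1 FPKM in replicate 2. At day 6 these rows had 0.942 and 1.35 FPKM for NM_175387 and 4.93 and 5.41 FPKM for NM_053104.

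Qk makes a nuclear protein and shorter cytoplasmic forms that differ in their last coding exons. The row of the longest coding sequence, NM_001159517 with 1023 nt, is the nuclear form and held 91.9 and 93.7% of Qk at day 6 and 88.8 and 95.9% at day 4. The row of the shortest coding sequence, NM_001159516 with 957 nt, was at 1.74 and 0.928 FPKM at day 6, against 3.32 and 0.697 FPKM at day 4. The row with 975 nt of coding sequence, NM_021881, was at 0.347 and 0.423 FPKM at day 6, against 2.93 FPKM in day 4 replicate 1 and nearly 0 in replicate 2. Celf1 had 4 rows, and the row with longer first coding exons held 16.8 and 18.2% at day 6 and 21.8 and 9.45% at day 4, an overlap.

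**Figure D4:**
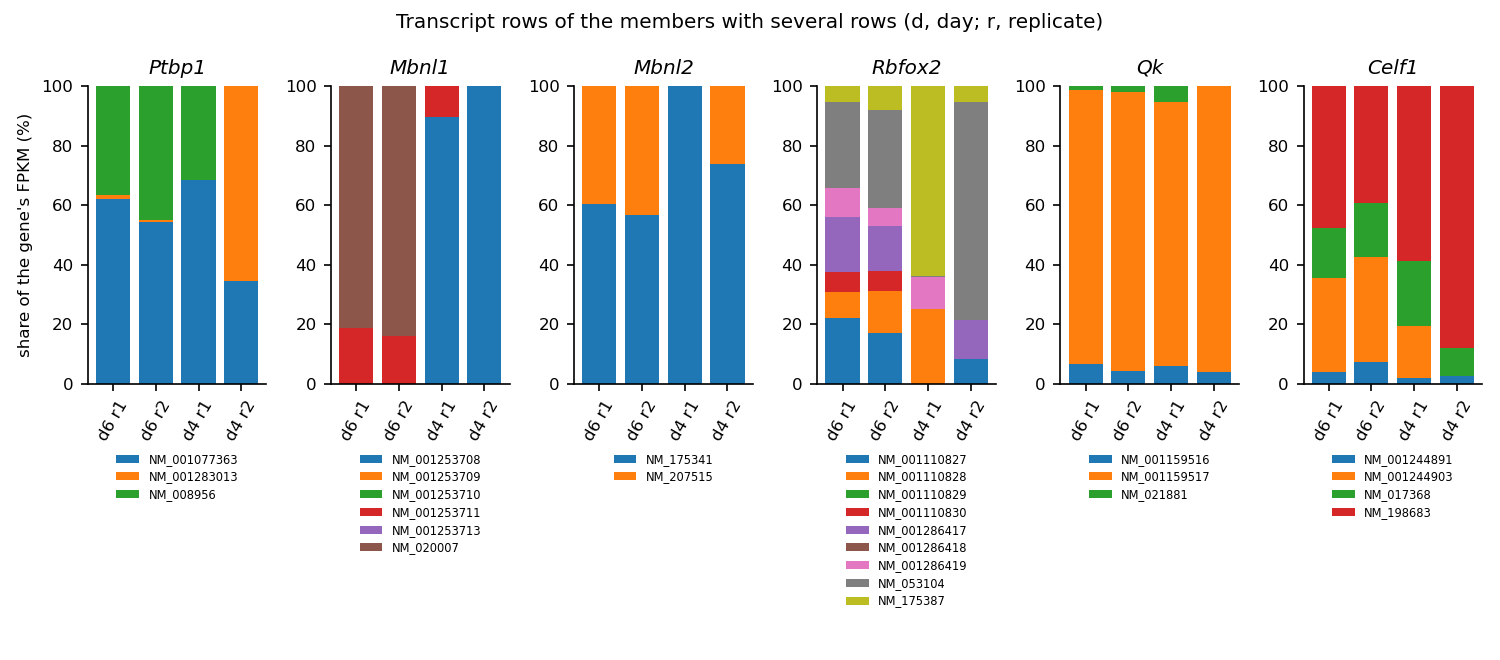
Share of the gene's FPKM in percent (vertical axis) held by each transcript row, by library, for the 6 members with several rows, with day 6 libraries left of day 4 libraries. The bars of the day 6 libraries look alike for each gene, and those of the day 4 libraries differ most for Ptbp1 and Rbfox2, while Mbnl1 has 81.4 and 83.9% in the row with the 95-nt exon at day 6 and 0.073 and 0.071% at day 4.

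Exons that these proteins are known to control were read the same way in their target genes. In each list up to 3 rows with the smallest diffSplice p were taken. Sequences are given for 3 of these exons, chosen after their values were seen. Each had a share in all 4 libraries and did not overlap between the days. Mbnl-type motifs are in capitals in the Itga6 exon only. The Plod2 and Slk exons were not searched for them, so lower case there does not mean that they hold none. The Itga6 sequence covers the 105 nt of a 130-nt exon that are coding.
Itga6 exon, chr2:71853534-71853638, plus strand: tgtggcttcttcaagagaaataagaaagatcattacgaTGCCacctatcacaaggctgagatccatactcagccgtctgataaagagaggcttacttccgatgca
Plod2 63-nt exon, chr9:92601985-92602047, plus strand: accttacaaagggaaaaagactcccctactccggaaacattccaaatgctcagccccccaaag
Slk 93-nt exon, chr19:47627648-47627740, plus strand: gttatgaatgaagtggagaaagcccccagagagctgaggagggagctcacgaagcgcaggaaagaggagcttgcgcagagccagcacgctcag

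Itga6, an integrin chain for laminin, uses this exon to switch between 2 cytoplasmic tails, and the exon is known to respond to Mbnl proteins. The row with the exon was at 30.8 and 18.5 FPKM at day 6, against 0.00041 and 0.00066 FPKM at day 4. It held 61.1 and 53.8% of Itga6 at day 6 and 0.0036 and 0.0149% at day 4. Its use differed from the other row by a log2 of 3.46, with a diffSplice adjusted p of 0.102 over all rows. It was called with a pseudocount of 0.1 FPKM (adjusted p 0.0134) and after GC correction (0.0390), and over all settings its adjusted p ran from 0.00344 without day 4 replicate 2 to 1.000 without day 6 replicate 1. The exon holds 1 Mbnl-type motif, and 74.0% of 1630 coding exons of 105 nt hold at least 1.

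Plod2, a collagen lysyl hydroxylase, and Slk, a kinase of the cytoskeleton, carry exons known to respond to Rbfox2 in the case of Plod2 and to the Esrp proteins in that of Slk. The Plod2 exon was in 79.5 and 100.0% of the gene's FPKM at day 6, against 39.96 and 1.02% at day 4 (adjusted p 0.470). In day 4 replicate 2 the whole gene was at 0.170 FPKM. The Plod2 exon holds no TGCATG, the Rbfox motif, which 1.48% of 1152 coding exons of its length hold. The Slk exon was in 41.0 and 64.3% at day 6 and 15.6 and 0.0415% at day 4 (adjusted p 0.458). For the 93-nt exon of Ect2, an exchange factor of cell division, the share was 11.3 and 10.997% at day 6 and 72.9% in day 4 replicate 1, and the gene was listed at 0 in day 4 replicate 2.

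The exons most often used as readouts of these factors were looked at after their values were seen. Fgfr2 has an exon of epithelial cells, IIIb, which Esrp proteins favour. Exon IIIb was in 55.2 and 43.4% of Fgfr2 at day 6 and 41.1 and 39.4% at day 4. The row with IIIb has 2178 nt of coding sequence, and the row without it has 2520 nt. These rows differ in more than this exon, so the share is not a readout of IIIb alone. The gene itself was at 9.05 and 11.8 FPKM at day 6, against 2.47 and 1.81 FPKM at day 4. In Pkm, the pyruvate kinase whose downstream exon is favoured by Ptbp1, that exon was in 96.1 and 97.1% at day 6 and 97.5 and 99.7% at day 4. Tpm1, a tropomyosin with Ptbp-regulated exons, held the row with the smallest diffSplice p in that list: NM_001164251 was at 7.13 and 7.70 FPKM at day 6, against 623 and 892 FPKM at day 4 (diffSplice adjusted p 0.00459). Without day 6 replicate 1 or replicate 2 the adjusted p of NM_001164251 was 0.828 and 1.000, while under the other settings it stayed called. In Dlg4, a postsynaptic scaffold, the row NM_007864 held 99.8 and 100.0% at day 6 and 10.9 and 1.31% at day 4 (diffSplice adjusted p 0.0805). It was called with the smaller pseudocount (0.0151), after TPM rescaling (0.0469) and after GC correction (0.0431). The row was at 6.94 and 8.71 FPKM at day 6, against 0.0874 and 0.0780 FPKM at day 4. The whole gene was at 0.804 FPKM in day 4 replicate 1 and 5.95 FPKM in day 4 replicate 2. Whether these Tpm1 and Dlg4 rows differ from the other rows of their gene by a Ptbp-regulated exon was not tested.

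**Figure D5:**
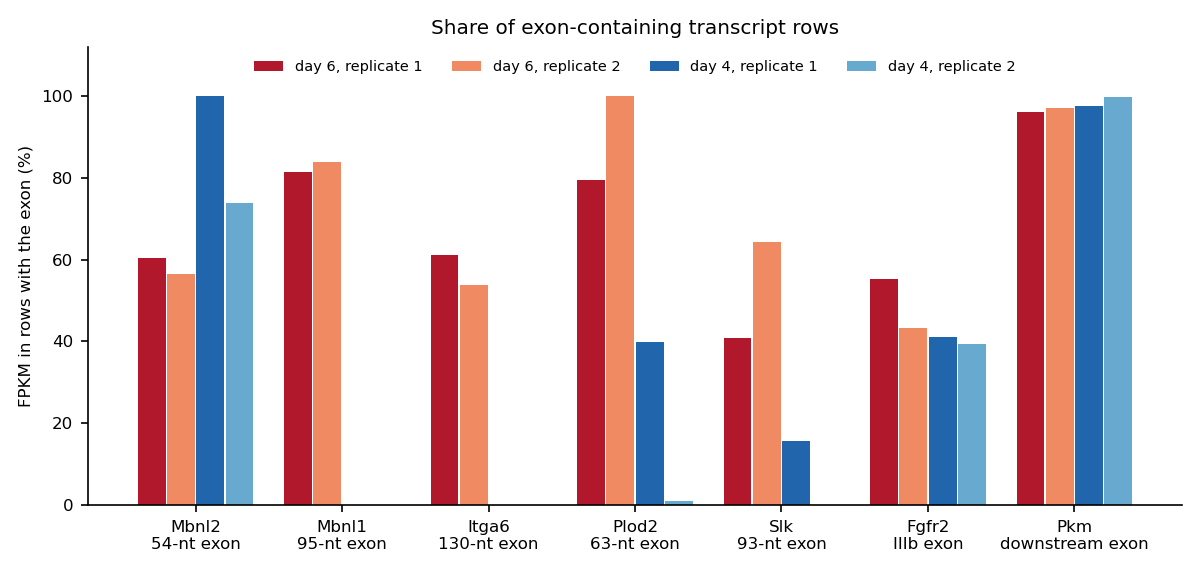
Share of a gene's FPKM in percent (vertical axis) in transcript rows that contain the named exon, by library, with day 6 in red and orange and day 4 in blue. The exons of Mbnl1, Itga6, Plod2 and Slk have higher shares in both day 6 libraries, the Mbnl2 exon has lower ones, and the Pkm exon is above 96% in all 4 libraries.

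Genes with regulated exons and other genes of the splicing machinery are given as counts over lists. Some exon lists also hold members: Mbnl1 and Mbnl2 in that of Mbnl, Ptbp1 and Ptbp2 in that of Ptbp, and Rbfox2 in that of Rbfox. Mbnl2 and Rbfox2 are thus among the genes counted as higher there, and Mbnl1 is counted as lower. In the lists of genes that carry regulated exons, the median log2 difference of gene levels was 0.78 over 12 tested genes with Esrp-regulated exons, 0.54 over 12 with Mbnl-regulated exons and 0.25 over 14 with Ptbp-regulated exons, beside 0.51 over all genes. Those higher and lower without overlap numbered 5 and 1 for Esrp, 7 and 1 for Mbnl and 6 and 2 for Ptbp. For 10 genes with Rbfox-regulated exons they numbered 5 and 1, for 4 with Qk-regulated exons 2 and 0, and for 4 with Celf-regulated exons 3 and 0. Over all genes tested 41.6% were higher and 11.5% lower without overlap, and the Esrp shares of 41.7 and 8.33% and the Ptbp shares of 42.9 and 14.3% lie near that, while the Mbnl shares were 58.3 and 8.33%. After median centring and after GC correction the list medians were 0.15 and 0.14 for Esrp, -0.087 and -0.053 for Mbnl, and -0.38 and -0.27 for Ptbp. The limma test called 0 genes in each of these lists. Genes with smaller differences included Numb, a Notch inhibitor, at 19.7 and 20.6 FPKM at day 6, against 13.6 and 17.7 FPKM at day 4, and Mapt, the tau gene, at 1.37 and 1.33 FPKM at day 6, against 1.14 and 1.10 FPKM at day 4, and both turned negative under median centring. Of the actin-capping gene Capzb, the row NM_009798 held 97.7 and 98.98% at day 6 and 84.1 and 100.0% at day 4. Wider examples are Fgfr2 above, the guanine nucleotide exchange factor Arhgef11, at 6.44 and 6.74 FPKM at day 6, against 1.58 and 1.56 FPKM at day 4, and the matrix protein gene Fn1, at 679 and 628 FPKM at day 6, against 139 and 181 FPKM at day 4.

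The hnRNP proteins, abundant RNA-binding proteins that often block exons, mostly had negative differences. Of 24 tested, 0 were higher and 8 lower without overlap, and 22 had a negative difference under the deposited scale, median centring and GC correction alike. Over all 11716 genes 3329 were negative on the deposited scale, and 41.6% were higher and 11.5% lower without overlap. The median log2 difference of the hnRNP genes was -0.49. Hnrnpd, which binds AU-rich RNA, was at 29.9 and 32.2 FPKM at day 6, against 150 and 78.6 FPKM at day 4, a log2 difference of -1.77 with a standard error of 0.53 (limma adjusted p 0.289). Hnrnpll, known from T cell exon skipping, was at 20.9 and 19.5 FPKM at day 6, against 88.0 and 47.3 FPKM at day 4. Hnrnpm, known to compete with Esrp1 at some exons, was at 104 and 94.5 FPKM at day 6, against 243 and 230 FPKM at day 4.

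Of 12 tested SR proteins, which mostly promote exon inclusion, 0 were higher and 5 lower without overlap, beside 41.6% higher and 11.5% lower over all genes. Their median log2 difference was -0.34, which became 0.67 without day 4 replicate 1 and -1.15 without day 4 replicate 2. Srsf4 was at 48.9 and 64.8 FPKM at day 6, against 148.3 and 135 FPKM at day 4, and Srsf1 was at 30.2 and 26.2 FPKM at day 6, against 63.5 and 39.5 FPKM at day 4. Of 34 core spliceosome genes, 6 were higher and 6 lower without overlap (17.6% each way, against the same background), with a median of 0.23. That median was -0.33 without day 4 replicate 2, -0.40 after median centring and -0.43 after GC correction. The U1 component Snrnp70 was at 243 and 314 FPKM at day 6, against 802 and 756 FPKM at day 4, and the catalytic-core gene Prpf8 was at 107 and 109 FPKM at day 6, against 62.3 and 32.0 FPKM at day 4.

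Of 24 tested genes among other regulators of cell state, 7 were higher and 8 lower without overlap (29.2 and 33.3%, beside 41.6 and 11.5% of all genes), with a median of 0.06. That median was -0.57 after median centring, -0.46 after GC correction, -0.27 without day 4 replicate 1 and -0.43 without day 4 replicate 2. Khdrbs3, a neural relative of Sam68, was at 6.67 and 6.03 FPKM at day 6, against 16.9 and 22.3 FPKM at day 4. Tia1, a binder of U-rich introns, was at 8.34 and 6.17 FPKM at day 6, against 3.28 and 0.783 FPKM at day 4. Of the members' own relatives, 4 of 8 were tested. Celf2 was at 2.78 and 2.33 FPKM at day 6, against 1.31 and 0.240 FPKM at day 4, and Celf4, a neural relative, was at 0.407 and 0.217 FPKM at day 6, against 2.30 and 1.57 FPKM at day 4. The limma test called 0 genes in all of these lists.

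The genes whose profile over the 4 libraries was nearest to that of Mbnl3, by Euclidean distance of log2 values centred on each gene's mean, were Akr1b8 at 0.059, Coro2b at 0.11 and Rab29 at 0.12. Akr1b8, an aldo-keto reductase, was at 4.91 and 6.23 FPKM at day 6, and at day 4 it had 0.682 FPKM in replicate 1 and was listed at 0 in replicate 2. Nearest to Qk, which had the largest negative difference, were Ell2 at 0.067 and Yipf6 at 0.080. Ell2, an elongation factor, was at 7.38 and 6.19 FPKM at day 6, against 17.2 and 5.04 FPKM at day 4. With 4 libraries such a likeness is a description only.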

How the data were processed

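RNA-seq tables of 4 libraries were used, 2 of day 6 and 2 of day 4. The reads were handled with TopHat2 2.0.11 and CASAVA on build mm10, per the submitters' processing notes. For the quantifier and its annotation, nothing is given in the sources used here. The values are FPKM per transcript row as the authors deposited them, with FPKM bounds. The deposited coverage signal, the mean read depth of a row, served only to describe depth. The tables hold no counts, and row starts were raised by 1 to count from 1.

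Rows were named by transcript ID from a RefSeq gene table of GRCm38.p6 (30290 rows) and from GENCODE M21, by its RefSeq links (160) and its transcripts (3585). 1621 rows stayed unnamed. FPKM were summed per symbol. Exon sequences and coding lengths came from GENCODE M21 transcripts. Genes and rows with a mean of at least 1 FPKM were tested on log2(FPKM + 1), a scale that understates the change of low genes, with limma 3.58.1 under R 4.3.3 (trend, two-sided, Benjamini-Hochberg, threshold 0.05), and isoform use with its diffSplice. Shares used an exact two-sided permutation test, which cannot go under 0.33 here. The limma steps were tested on simulated data. Other steps ran in Python 3.11.15. Alternatives were another pseudocount, no filter, median centring, TPM rescaling, GC correction, a replicate block, leaving out each library, and subsets of rows.

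The named genes are all 10 members and their rows. From each other list come up to 4 tested genes with the smallest p whose days do not overlap, of which the text gives some. From exon lists come up to 3 rows with the smallest diffSplice p, and 3 genes nearest in profile to the members with the largest positive and negative difference, of which 1 is not reported here. Members and lists were chosen with earlier results of these data known.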

Additional observations from a re-analysis of the deposited data

How the results depend on the processing

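No result for a named gene depends on the row subsets tried. With the samples' replicate number as a block, which no label ties to a shared culture (correlation of same-numbered deviations -0.090 over 11716 genes), 67 genes and 1 transcript row were called, and 1 gene with GC correction and the block together. Rows called for isoform use numbered 195 of 3955 with a pseudocount of 0.1, and 336 of 11075 with no filter (2 of them member rows). They numbered 127 of 3952 after GC correction, 20 of 3955 with the block, and 44 of 3952 with both. Signs turned for Esrp1 (-0.28 after median centring, -0.34 after GC correction with or without the block), Rbfox2 (-0.33, -0.36), Ptbp1 (-0.52, -0.42), Celf1 (-0.61, -0.65, and -0.025 after TPM rescaling), Mapt (-0.48, -0.39), Numb (-0.27, -0.30), Ptbp2 (-0.32, centring only) and use of Capzb row NM_009798 (-0.41, pseudocount). The cause was not tested. After centring 2 members were higher and 4 lower without overlap, and 4 were lower after GC correction. The matching shares over all genes are not given, so these counts describe the members only. List medians after centring and GC correction were -0.14 and -0.056 for relatives, -0.57 and -0.46 for other regulators, -1.12 and -1.03 for hnRNP proteins, -0.40 and -0.43 for the core spliceosome, and -0.97 after centring for SR proteins.

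Among results for single genes, rows and exons, 72 gained a call without day 4 replicate 1 and 63 without day 4 replicate 2, and the call of the Tpm1 row was lost without either day 6 library. Calls were gained by 6 with the replicate block, 4 with the smaller pseudocount, 4 after GC correction and 2 after TPM rescaling, none of them a member's level. Leaving out one library gave 0 to 7837 genes called, 0 to 7663 rows called, 0 to 2067 rows called for use, 0 to 10 of them member rows, 0 to 7 members called, 4 to 8 members higher and 1 to 5 lower without overlap. With a library left out an absence of overlap is easier to reach, and the share of all genes that reach it is not given. Those counts of members higher and lower therefore describe the members only. Log2 differences ran from -0.55 to 0.58 for Celf1, -0.27 to 0.96 for Esrp1, -0.93 to 1.15 for Ptbp1, -1.07 to 1.69 for Ptbp2 and -1.21 to 0.44 for Qk. Percentage-point differences ran from -4.36 to 8.03 for the Celf1 exons, -10.1 to 23.7 for the Ptbp1 exon, -3.13 to 4.02 for Qk, -3.87 to 33.6 for the Esrp2 share, -1.98 to 4.26 for Mbnl2, -4.27 to 7.87 for Ptbp1 and -3.35 to 0.77 for Ptbp2. List medians ran from -1.15 to 0.67 for SR proteins, -0.33 to 0.57 for the core spliceosome, 0.10 to 0.69 for relatives, -1.25 to -0.38 for hnRNP proteins and -0.43 to 0.083 for other regulators. The depth behind the rows is unknown.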
